A study of Mus musculus with 44 samples.

Results

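The mRNA difference between libraries labelled Mettl3cko and wild type that SSC, pre-BCSP and BCSP have in common was measured in 12 input libraries of sorted mouse cells, out of the 44 libraries of the series. The 12 were chosen by title and population before any level was read: 6 libraries labelled Mettl3cko and 6 labelled wild type (WT), with 2 of each in each of the 3 populations. METTL3 is the catalytic subunit of the complex that places N6-methyladenosine (m6A) on mRNA, and reader proteins of the YTH family bind the mark and, in the case of YTHDF2, speed the decay of the mRNA. SSC are skeletal stem cells of the growth plate, and pre-BCSP and BCSP are the bone, cartilage and stromal progenitors placed downstream of them. The comparison asks which mRNAs differ between the genotypes in all 3 steps of this hierarchy.

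All mice were of the strain C57Bl6, untreated and at postnatal day 3, and the cells came from long bone by flow cytometry after depletion of blood (CD45, Ter119) and vessel (Tie2) cells. By the study the Mettl3cko mice were Mettl3 fl/fl;Col2a1-Cre and its WT controls were Mettl3 fl/fl, so the presence of Cre and the loss of Mettl3 cannot be told apart. The titles say only wild type, and whether these WT libraries came from the floxed controls is not stated per library. If they did, all groups carried the floxed alleles. If the groups differed in source, that difference could not be told apart from genotype. Col2a1-Cre acts in cells that use the type II collagen promoter, and not all sorted cells need have recombined. Genotype was read from the sample titles alone, since another label names all of these mice wild type, and all libraries share 1 batch label. Whether the 2 libraries of a group came from separate animals or from pools is not stated per library, and p-values measure the spread between these libraries.

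Mettl3 itself was read first. In the 6 WT libraries its normalised level ran from 11.5 to 19.3 CPM (counts scaled to the library total), with a median of 15.3, and in the 6 libraries labelled Mettl3cko from 15.8 to 22.2 CPM, with a median of 17.7. The groups overlapped, and the level was not lower in the libraries labelled Mettl3cko (log2 change 0.25, standard error 0.17, adjusted p = 0.449 by edgeR's quasi-likelihood test with Benjamini-Hochberg adjustment). The gene (ENSMUSG00000022160.18) lies on the minus strand of chromosome 14 of GRCm38, from 52294841 to 52305128. A count over the whole gene does not show the loss of single exons, and which exons are floxed is not given in the sources used here, so the count neither bears out nor contradicts the titles. The study itself reported the deletion by qRT-PCR and by western blot of SSC, and less m6A by dot blot. Its m6A sequencing gave lower m6A levels in SSC, pre-BCSP and BCSP after the deletion.

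The libraries held 29766972 to 35325482 counts each. Type II collagen (Col2a1), the cartilage transcription factor Sox9 and other cartilage genes were among the abundant mRNAs in both groups, with a mean of 73128 CPM of Col2a1 in WT and 59204 CPM in libraries labelled Mettl3cko. Several properties moved with genotype. Genes with at least 1 count numbered 19385 to 20747 in WT and 17283 to 19884 in libraries labelled Mettl3cko (exact permutation test, two-sided, genotypes exchanged within each population, p = 0.0185, with 0.00926 the smallest p this design allows). The share of counts from the mitochondrial genome was 0.427% to 0.717% in WT and 0.320% to 0.503% in libraries labelled Mettl3cko (same exact permutation test, p = 0.0185). Summed levels of 8 erythroid markers were 0.682 to 5.37 CPM in WT and 11.3 to 49.7 CPM in libraries labelled Mettl3cko, with Hbb-y at 0 in all 12. Hba-a1, Hba-a2 and Hbb-bs, the globin genes of that list that rose, are therefore listed apart from the bone genes. Of the other marker lists, Schwann cell genes summed to 5.28 to 15.5 CPM in WT and 10.2 to 30.6 CPM in libraries labelled Mettl3cko (Mbp rose), endothelial genes to 4.71 to 44.9 and 8.92 to 48.5 CPM (Egfl7 rose, a call lost in 10 of the 12 fits without 1 library and with genotype and replicate number as a random block in limma voom, adjusted p = 0.0906), and osteoclast genes to 92.7 to 135 and 64.9 to 112 CPM (Ctsk fell, and Calcr was at 0 in all 12). Leukocyte, muscle and sort marker lists had no called gene. Their part in the changes below was not tested.

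The libraries were not 12 unrelated samples. Within a genotype, libraries of 1 replicate number deviated together from their group means across populations (correlation over genes of 0.227 to 0.429 in 6 pairs), while WT and Mettl3cko libraries of 1 number did not (−0.064 to 0.050 in 3 pairs). Xist, the RNA of the inactive X chromosome, was at 109 to 252 CPM in the 3 WT libraries numbered 1 and at 95.3 to 139.9 CPM in the 3 Mettl3cko libraries numbered 2. It was at 5.24 to 10.5 CPM in the WT libraries numbered 2 and at 0 to 0.333 CPM in the Mettl3cko libraries numbered 1. Ddx3y, a gene of the Y chromosome, was at 118 to 174 CPM in the latter 6 libraries and at no more than 2.19 CPM in the former 6. The sexes were thus in balance between genotypes, and libraries that share a number within a genotype may come from the same animals or pools, which was not stated.

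**Figure D1:**
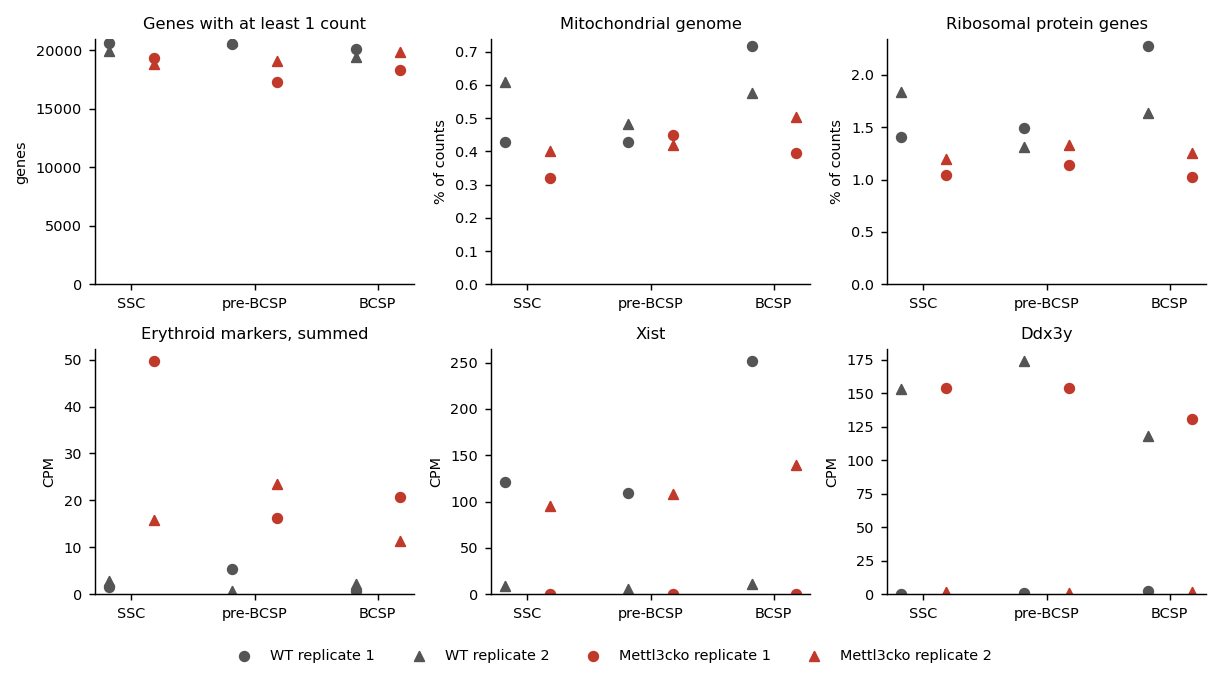
Properties of the 12 input libraries by population: genes with at least 1 count, share of counts (%) from the mitochondrial genome and from ribosomal protein genes, and levels in CPM of the summed erythroid markers, Xist and Ddx3y. Each point is a library, grey for WT and red for Mettl3cko, circles for replicate 1 and triangles for replicate 2; the erythroid sum is higher in all 6 Mettl3cko libraries than in any WT library.

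With population as a blocking factor, 715 of the 18655 genes tested were higher in libraries labelled Mettl3cko (3.83%) and 492 were lower (2.64%) at an adjusted p under 0.05 by edgeR. Their median log2 change was 0.77 among the genes that rose and −0.77 among those that fell, against −0.04 over all genes tested, and 220 and 134 genes changed by more than 2-fold. The genes called were well expressed, with a median level of 54.2 CPM for those that rose and 39.9 CPM for those that fell, against 6.23 CPM over all genes tested. Protein-coding genes made up 95.9% of the genes that rose and 93.1% of those that fell, against 81.8% of all genes tested and matched to GENCODE vM21. Of the 9898 genes tested with at least 5 CPM, 9623 were protein-coding, a share no lower than that of the called genes.

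The change had 1 direction in the 3 populations for 714 of the 715 genes that rose and all 492 that fell, against 42.3% of all genes tested. In 564 genes that rose, or 78.9%, both Mettl3cko libraries lay above both WT libraries in each population, against 4.33% of all genes tested. In 391 genes that fell, or 79.5%, they lay below, against 4.22%. All 6 Mettl3cko libraries were above all 6 WT libraries in 356 of the genes that rose and below them in 232 of those that fell. These counts come from the same libraries that gave the calls. The high shares among called genes are therefore largely set by that choice and are no separate evidence of a shared change. Across 9898 genes of at least 5 CPM the log2 changes of 2 populations correlated at 0.41 to 0.57 (Pearson, a description over genes, which are not independent replicates and share their libraries' sources). By edgeR's test of genotype by population, 0 genes had a change that differed between populations after adjustment. At an unadjusted p under 0.05, 839 genes did, 50 of them among the 1207 called, and DESeq2's likelihood ratio test called 41.

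The count of calls rests on the joint fit. Within SSC alone edgeR called 0 genes at an adjusted p under 0.05 (2027 at an unadjusted p, 713 at an adjusted p by DESeq2), within pre-BCSP 7 and within BCSP 12. Without the SSC libraries 46 genes rose and 30 fell, and without SSC WT replicate 2, the single library that mattered most, 424 rose and 251 fell. When the counts of each genotype and replicate number were summed over the populations, which leaves 2 against 2 samples, edgeR called 0 genes at an adjusted p under 0.05, while 1399 were higher and 1348 lower at an unadjusted p. Of the 1207 calls, 1207 kept their direction and 1204 had an unadjusted p under 0.05 in those sums, which hold the counts that gave the calls.

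**Figure D2:**
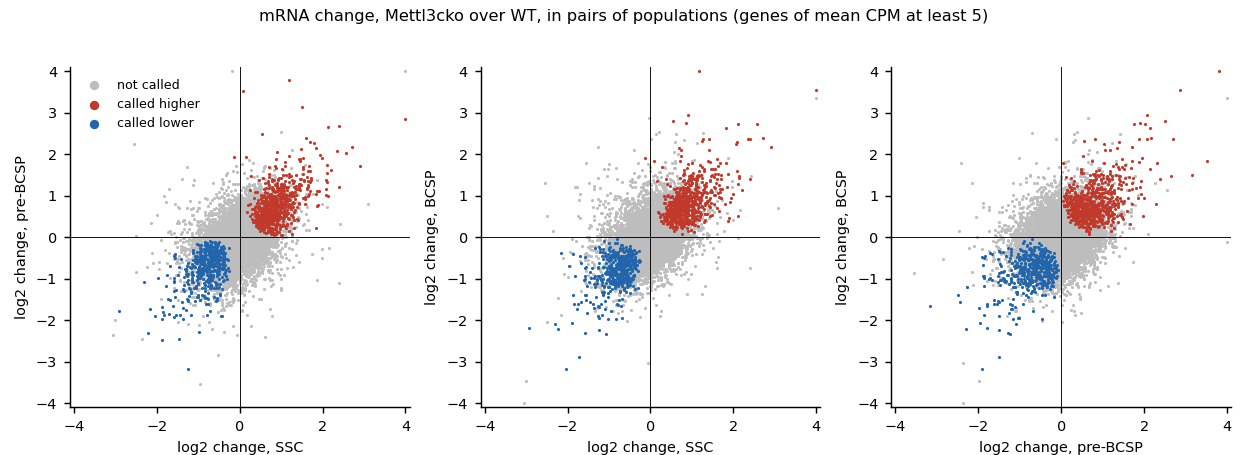
Log2 change of Mettl3cko over WT in each pair of populations for genes with a mean of at least 5 CPM, 1 point per gene, with values beyond 4 drawn at 4. Genes called higher (red) and lower (blue) were chosen by the joint fit of these same libraries, so their place in the quadrants of equal sign is largely set by that choice. The 3 correlations over the 9898 genes are between 0.41 and 0.57.

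Mgp, Ube2h and Cdk6 had been named as markers of the deletion. Mgp (ENSMUSG00000030218.2, chromosome 6 of GRCm38 from 136872435 to 136875823) encodes matrix Gla protein, an inhibitor of mineralisation in cartilage. Its level was 872 to 1707 CPM in WT (median 1167) and 368 to 849 CPM in libraries labelled Mettl3cko (median 567). No Mettl3cko library reached the lowest WT library, and the log2 change was −1.06 (standard error 0.18, adjusted p = 0.00368 by edgeR), with −1.16 in SSC, −0.84 in pre-BCSP and −1.16 in BCSP. Ube2h (ENSMUSG00000039159.16, chromosome 6 from 30211289 to 30304539) encodes a ubiquitin-conjugating enzyme. Its level was 55.9 to 73.8 CPM in WT (median 60.6) and 93.7 to 174 CPM in libraries labelled Mettl3cko (median 112). The groups did not overlap, and Ube2h rose by 0.94 on the log2 scale (standard error 0.15, adjusted p = 0.00246 by edgeR).

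Cdk6 (ENSMUSG00000040274.11, chromosome 5 from 3341485 to 3531008), the cyclin D kinase of G1, did not pass the test over the 3 populations. Its level was 54.8 to 218 CPM in WT (median 95.4) and 101 to 295 CPM in libraries labelled Mettl3cko (median 162). BCSP WT replicate 1, at 218 CPM, lay above both Mettl3cko libraries of its population, and the log2 change was 0.87 in SSC, 1.29 in pre-BCSP and 0.08 in BCSP, with 0.75 over the 3 (standard error 0.28, adjusted p = 0.133 by edgeR). DESeq2 called it higher. Of the 16 genes that the study names around Mettl3-deleted SSC, Ccne1, Ube2h and Fem1b rose and Mgp and Id2 fell. Among these, Ube2h, Cdk6, Fem1b, Bglap, Mgp, Id2 and Bmpr1a were named from SSC libraries that are among the 12 used here, so their direction in SSC is not independent evidence. Without the SSC libraries edgeR called 0 of the 3 markers Mgp, Ube2h and Cdk6, though each kept its direction.

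**Figure D3:**
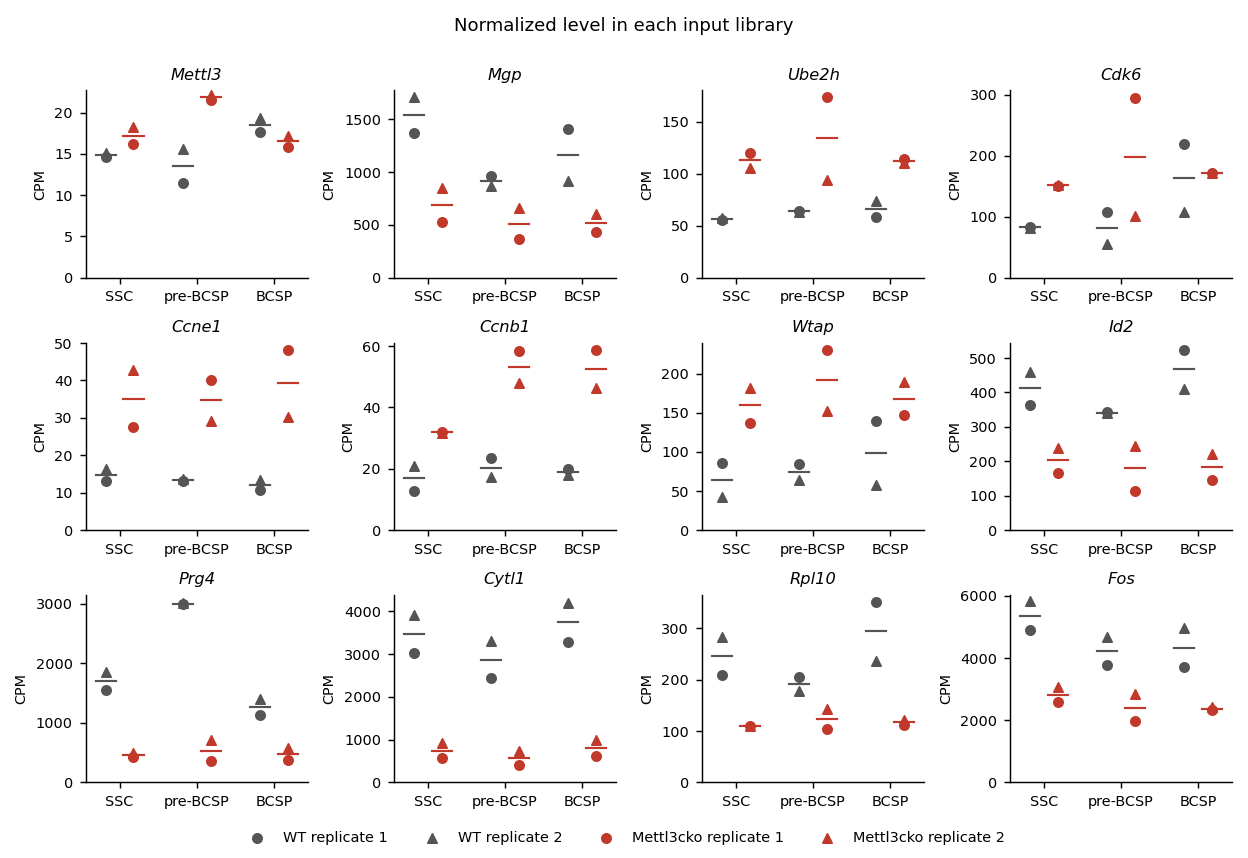
Normalised level (CPM) of 12 genes in each of the 12 input libraries by population. Each point is a library, grey for WT and red for Mettl3cko, circles for replicate 1 and triangles for replicate 2, and bars are means of 2 libraries; Mettl3 and Cdk6 overlap between genotypes, while for Mgp and Ube2h no WT library reaches into the Mettl3cko range.

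Among called genes with 1 direction in the populations and a mean of at least 5 CPM, predicted genes left out, the largest changes on the higher side were those of the globin gene Hba-a1 and of Pi16, a peptidase inhibitor found in fibroblasts. Pi16 was at 0.193 to 1.84 CPM in WT and at 0 to 28.6 CPM in libraries labelled Mettl3cko, so its groups overlapped, and its call was lost in 7 of the 12 fits that left out 1 library (adjusted p up to 0.0679 by edgeR). Ddit4l, an inhibitor of mTOR signalling, was at 4.24 to 56.3 CPM in WT and 44.1 to 252 CPM in libraries labelled Mettl3cko, with both Mettl3cko libraries higher in each population, and rose by 2.48 on the log2 scale (standard error 0.29, adjusted p = 0.00067 by edgeR). Tead4, a DNA-binding partner of YAP, was at 1.01 to 4.09 CPM in WT and 7.39 to 15.3 CPM in libraries labelled Mettl3cko, without overlap. Phlda2, an imprinted gene that restrains growth of the placenta, was at 9.92 to 28.8 and 49.4 to 127 CPM, also without overlap. Tmem95, Hal, Hao1, Ifit3, Lrrn1, Scn2b and Kera completed the list, with log2 changes between 1.99 and 2.44.

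The smallest p-values on the higher side were those of Ccl7, Arc, Umps, Tmem95, Olfml3 and Arf2. Ccl7, a chemokine that attracts monocytes, was at 15.3 to 21.8 CPM in WT (median 17.7) and 47.6 to 87.9 CPM in libraries labelled Mettl3cko (median 73.7). It rose by 1.93 on the log2 scale (standard error 0.16, adjusted p = 9.32e-05 by edgeR), with 1.69, 2.30 and 1.80 in SSC, pre-BCSP and BCSP. Arc, known as an activity-regulated gene of neurons, was at 282 to 468 CPM in WT and 937 to 1185 CPM in libraries labelled Mettl3cko, and rose by 1.44 (standard error 0.13, adjusted p = 0.000144 by edgeR). Umps, which completes the synthesis of uridine monophosphate, was at 47.9 to 61.4 CPM in WT and 98.2 to 129.8 CPM in libraries labelled Mettl3cko. For all 6 genes every Mettl3cko library was above every WT library.

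On the lower side the same choice of genes gave Cytl1, Prg4 and Ctgf among those with the largest changes. Cytl1 (ENSMUSG00000062329.4, chromosome 5 of GRCm38 from 37735519 to 37739820), a secreted protein of chondrocytes, was at 2428 to 4187 CPM in WT (median 3292) and 419 to 989.7 CPM in libraries labelled Mettl3cko (median 683). The gap between the groups was wide in each population, and Cytl1 fell by 2.25 on the log2 scale (standard error 0.18, adjusted p = 9.32e-05 by edgeR), by 2.22, 2.31 and 2.21 in SSC, pre-BCSP and BCSP. Prg4 (ENSMUSG00000006014.16, chromosome 1 from 150449412 to 150466165) encodes lubricin, the lubricant of the joint surface. It was at 1139 to 3011 CPM in WT (median 1703) and 356 to 714 CPM in libraries labelled Mettl3cko (median 466), and its log2 change was −1.92 (standard error 0.21, adjusted p = 0.000491 by edgeR). Both WT libraries of pre-BCSP, at 2993 and 3011 CPM, were the highest of the 12. Ctgf, a matricellular protein and a known target of YAP, fell by 1.97 on the log2 scale, from 64.2 to 191 CPM in WT to 12.2 to 51.6 CPM in libraries labelled Mettl3cko. Ecm2, a matrix glycoprotein, Apoe, the apolipoprotein, and Gadd45g, a growth arrest gene, fell by 1.24, 1.04 and 1.35 on the log2 scale, each without overlap between the groups. The other genes by size of change were Rpl3-ps1, Dmkn, Fxyd2, Hist1h2ac, Prss50, Hoga1, Lag3, Lgr6 and Rnf144b, with log2 changes between −2.29 and −1.64. Rpl3-ps1 is a pseudogene whose reads may be shared with its parent gene.

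Counts for the gene lists below are read beside the 3.83% of all genes tested that rose and the 2.64% that fell. These lists too were chosen with earlier results of these data known, so their counts are descriptions. The machinery that writes m6A was examined as a list of 9 genes. All 9 had a positive log2 change, with a median of 0.30, and 4 rose while 0 fell. Wtap (ENSMUSG00000060475.13, chromosome 17 of GRCm38 from 12966796 to 12994169) encodes the adaptor that brings METTL3 and METTL14 to nuclear speckles. Its level was 42.7 to 139.6 CPM in WT (median 74.5) and 138 to 230.4 CPM in libraries labelled Mettl3cko (median 167). BCSP WT replicate 1 was the highest WT library and the only one to reach the Mettl3cko range, and Wtap rose by 1.15 on the log2 scale (standard error 0.23, adjusted p = 0.0102 by edgeR). Rbm15, an RNA-binding subunit of the complex, was at 56.6 to 115 CPM in WT and 113 to 208 CPM in libraries labelled Mettl3cko and rose by 0.84. Mettl16, a separate m6A methyltransferase, rose by 0.50 (adjusted p = 0.0355 by edgeR), and Zc3h13, a further subunit, by 0.47 (adjusted p = 0.0411 by edgeR). These last calls were lost in 11 and 10 of the 12 fits without 1 library, and that of Rbm15 in 1. Mettl14, the partner of METTL3, had a log2 change of 0.04 (adjusted p = 0.962 by edgeR). With genotype and replicate number as a random block in limma voom, 2 of the 9 were called.

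Among 10 readers and erasers of m6A, Ythdf2 (ENSMUSG00000040025.17, chromosome 4 from 132184912 to 132212303) was the only gene that rose and none fell. It was at 138 to 222 CPM in WT (median 193) and at 269 to 322 CPM in libraries labelled Mettl3cko (median 297), so that the groups were apart. The log2 change was 0.71 (standard error 0.11, adjusted p = 0.00192 by edgeR). Ythdf1 and Ythdf3, its paralogs, had changes of 0.19 and −0.20, and the demethylases Fto and Alkbh5 of 0.13 and 0.16, none of them past the test.

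Of 24 genes of DNA replication and mitosis tested, 8 rose and 0 fell. All 24 had a positive log2 change, with a median of 0.56 against −0.04 over all genes tested. Ccnb1 (ENSMUSG00000041431.16, chromosome 13 of GRCm38 from 100778650 to 100786570), the mitotic cyclin, was at 12.6 to 23.4 CPM in WT (median 18.97) and 31.7 to 58.8 CPM in libraries labelled Mettl3cko (median 47.2). The ranges were separate, and Ccnb1 rose by 1.26 on the log2 scale (standard error 0.17, adjusted p = 0.000952 by edgeR). Aurkb, a kinase of the chromosomal passenger complex, rose by 1.42, Top2a, which untangles DNA, by 1.27, and Kif11, a motor of the spindle, by 1.19. Mki67, Aurka, Birc5 and Tk1 completed the genes called. Pcna, the sliding clamp of DNA synthesis, had a log2 change of 0.01, and the helicase subunits Mcm2 to Mcm7 lay between 0.04 and 0.58 without a call. Leaving out single libraries gave 5 to 8 calls, and leaving out SSC gave 1.

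Of 17 genes of G1 control, Ccne1 rose and Ccnd3 fell, against 3.83% and 2.64% of all genes tested. The median log2 change of the list was 0.18. Ccne1 (ENSMUSG00000002068.16, chromosome 7 from 38097984 to 38107534) encodes cyclin E1, which drives entry into S phase. It was at 10.8 to 16.3 CPM in WT (median 13.3) and 27.7 to 48.2 CPM in libraries labelled Mettl3cko (median 35.3), without overlap. The log2 change was 1.44 (standard error 0.18, adjusted p = 0.000736 by edgeR), with 1.25, 1.38 and 1.70 in SSC, pre-BCSP and BCSP. Ccnd3, cyclin D3, fell by 0.66 (adjusted p = 0.0267 by edgeR), a call lost in 6 of the 12 fits without 1 library. The cyclin-dependent kinase inhibitors Cdkn1a and Cdkn1b had log2 changes of 0.18 and 0.19 and were not called.

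Promoters were searched for motifs known from cell-cycle and interferon genes. The windows were the 250 bases before the gene start in the RefSeq annotation of GRCm38.p6, both strands were searched, and 12824 genes tested here had a window. CCAAT, the box bound by NF-Y, was in 33.8% of all 32851 windows and in 39.7% of those of genes tested. It was in 18 of the 21 windows of the replication and mitosis list and in 5 of the 7 of its called genes. TTTGAA, the core of the cell-cycle homology region, was in 16.0% of all windows and in 6 of those 21. GAAANNGAAA, a core of the interferon-stimulated response element, was in 2.98% of all windows and in 7 of 14 windows of the interferon list. A match is a description of the letters only. The stretches that hold the matches are printed 5′ to 3′ for Top2a and Kif11 (mitosis, CCAAT and TTTGAA in capitals, also as ATTGG and TTCAAA, with 4 of the 8 matches of the Top2a window in the stretch shown) and for Ifit3 and Isg15 (interferon response, GAAANNGAAA in capitals, also as its complement), on the strand of the gene. Their positions are chr11:99024307-99024436 on the minus strand, chr19:37376317-37376381 on the plus strand, chr19:34583353-34583436 on the plus strand and chr4:156200855-156200916 on the minus strand, in that order.
Top2a: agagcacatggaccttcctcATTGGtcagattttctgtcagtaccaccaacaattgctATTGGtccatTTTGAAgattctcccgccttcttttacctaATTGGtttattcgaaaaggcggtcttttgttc
Kif11: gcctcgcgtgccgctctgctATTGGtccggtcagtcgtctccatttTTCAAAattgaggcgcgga
Ifit3: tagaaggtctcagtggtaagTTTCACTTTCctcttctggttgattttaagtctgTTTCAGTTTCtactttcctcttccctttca
Isg15: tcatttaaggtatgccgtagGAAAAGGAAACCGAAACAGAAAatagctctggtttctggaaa

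Of 18 interferon response genes tested, 12 had a positive change, the median was 0.36, and Ifit3, Isg15 and Ifi35 rose while 0 fell. With the random block in limma voom 1 call was left (adjusted p = 0.122 for Isg15 and 0.0713 for Ifi35). Ifit3, which binds viral RNA together with its relatives, was at 2.37 to 7.06 CPM in WT (median 4.27) and 14.1 to 31.7 CPM in libraries labelled Mettl3cko (median 20.2). The groups were apart, and Ifit3 rose by 2.2 on the log2 scale (standard error 0.27, adjusted p = 0.000736 by edgeR). Isg15, a ubiquitin-like modifier, was at 0.207 to 0.956 CPM in WT and 0.88 to 3.98 CPM in libraries labelled Mettl3cko, and its call was lost in 11 of the 12 fits without 1 library, as was that of Ifi35 in 10. The related Ifit1 had a log2 change of −0.72 with a standard error of 1.26, at 0 to 2.03 CPM in WT and 0 to 2.27 CPM in libraries labelled Mettl3cko.

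Genes of the Cullin-2 ubiquitin ligase, which joins substrate receptors such as FEM1B to the Cullin-2 scaffold, were joined with Ube2h in a list of 16. Ube2h and Fem1b rose and 0 fell, and the median log2 change was 0.10. Fem1b (ENSMUSG00000032244.9, chromosome 9 of GRCm38 from 62791821 to 62811934) was at 25.8 to 40.5 CPM in WT (median 33.4) and 39.9 to 62.1 CPM in libraries labelled Mettl3cko (median 46.3). BCSP WT replicate 2 was the only WT library within the Mettl3cko range. Fem1b rose by 0.59 on the log2 scale (standard error 0.16, adjusted p = 0.0414 by edgeR), by 0.76 in SSC, 0.67 in pre-BCSP and 0.34 in BCSP, and the call was lost in 10 of the 12 fits without 1 library (adjusted p up to 0.119 by edgeR) and with the random block in limma voom (adjusted p = 0.0608). Cul2, the scaffold, had a change of 0.37 and Fem1c, the paralog of Fem1b, of 0.60, both uncalled. Of 31 proteasome genes, Psmd8 alone was called, with a log2 change of −0.51. That share is near the 2.64% of all genes tested that fell, and the median of the list was −0.02.

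In the BMP pathway 5 of 23 genes fell and 0 rose, and 18 had a negative log2 change, with a median of −0.35. Id2 (ENSMUSG00000020644.9, chromosome 12 from 25093799 to 25097140), a target of BMP signalling that blocks basic helix-loop-helix factors, was at 339 to 524 CPM in WT (median 387) and 114 to 245 CPM in libraries labelled Mettl3cko (median 193). The ranges were separate, and Id2 fell by 1.10 on the log2 scale (standard error 0.19, adjusted p = 0.00397 by edgeR). Id3, its paralog, fell by 0.88 and Smad7, an inhibitor of the receptors, by 0.62. The ligand Bmp7 and Grem1, which binds and blocks BMP ligands, also fell, by 0.57 and 0.63. The genes that fell thus include an activator, 2 inhibitors and 2 targets. The receptor Bmpr1a had a change of −0.33 (adjusted p = 0.399 by edgeR). Leaving out single libraries gave 2 to 8 genes that fell, and leaving out SSC gave 0.

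The Hedgehog pathway held a call in each direction. Ihh, the ligand made by prehypertrophic chondrocytes, was at 31.4 to 197 CPM in WT (median 58.0) and 51.0 to 283 CPM in libraries labelled Mettl3cko (median 205). Across populations the ranges overlapped, but within each population both Mettl3cko libraries were higher, and Ihh rose by 1.05 on the log2 scale (standard error 0.22, adjusted p = 0.0125 by edgeR), by 1.89 in SSC, 0.79 in pre-BCSP and 0.47 in BCSP. The co-receptor Cdon fell by 0.82 and the transcription factor Gli2 by 0.80, the latter call being lost in 10 of the 12 fits without 1 library. Gli1 and Ptch1, which Hedgehog signals switch on, had changes of −0.37 and −0.31 and were not called, and the median over 14 genes was −0.32.

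Matrix genes changed as single genes rather than as a group. Of 25 cartilage factors and matrix genes, Prg4, Chad and Mgp fell, Ihh rose, and the median log2 change was −0.16. Chad (ENSMUSG00000039084.8, chromosome 11 from 94565047 to 94569127), chondroadherin, which links chondrocytes to the matrix, was at 4400 to 13243 CPM in WT (median 11054) and 1718 to 7217 CPM in libraries labelled Mettl3cko (median 5633). The pre-BCSP libraries were the lowest of each genotype, and in each population both Mettl3cko libraries were lower. Chad fell by 0.94 on the log2 scale (standard error 0.14, adjusted p = 0.0016 by edgeR). Col2a1, Acan and Sox9 had changes of −0.33, −0.16 and 0.07 and were not called. Of 17 osteoblast and bone matrix genes, Sparc, a collagen-binding glycoprotein, was the only gene called, with a log2 change of −0.59. Bglap, osteocalcin, had a change of −1.64 (standard error 0.54, adjusted p = 0.0894 by edgeR) with levels of 0.77 to 102 CPM in WT and 0.928 to 23.6 CPM in libraries labelled Mettl3cko. Its change was −2.50 in SSC, 0.02 in pre-BCSP and −2.05 in BCSP. Of 42 collagen chains, Col22a1 alone was called, with a log2 change of 1.41, a share below the 3.83% of all genes tested that rose.

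Of 85 ribosomal protein genes tested, 30 fell and Rps4l rose. A negative log2 change was found in 82, and the median was −0.47, with −0.43 in SSC, −0.15 in pre-BCSP and −0.78 in BCSP. Rpl10 (ENSMUSG00000008682.13, chromosome X of GRCm38 from 74270812 to 74273135), a protein of the large subunit, was at 178 to 352 CPM in WT (median 222) and 104 to 142 CPM in libraries labelled Mettl3cko (median 111). It fell by 1.04 on the log2 scale (standard error 0.16, adjusted p = 0.00185 by edgeR), and Rps18 and Rps27 fell by 0.81 and 0.80. As a share of all counts the class made up 1.31% to 2.28% in WT and 1.02% to 1.33% in libraries labelled Mettl3cko (two-sided exact permutation within populations, p = 0.0185). Leaving out single libraries gave 13 to 34 genes that fell, and leaving out SSC gave 0. Many ribosomal protein genes have processed pseudogenes, between which the counting may split reads.

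Of 15 transcripts of the mitochondrial genome, 14 had a negative change, 5 fell (mt-Rnr1, mt-Nd5, mt-Co1, mt-Rnr2 and mt-Nd1), and the median was −0.55. Leaving out single libraries gave 1 to 5 that fell, and leaving out SSC gave 0. Of 79 nuclear genes of oxidative phosphorylation 3 fell, a share near the 2.64% of all genes tested, and 1 to 3 fell without single libraries. Their median was −0.16, which was 0.16 in pre-BCSP and −0.51 in BCSP. Genes with 1 count or more were fewer and the erythroid sum was higher in the same libraries, and the part of these in the ribosomal and mitochondrial change was not tested.

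Immediate early genes, which respond to stimuli within minutes and also to tissue dissociation, had 7 genes that fell and 2 that rose of 22, with a median of −0.31. Fos (ENSMUSG00000021250.13, chromosome 12 from 85473890 to 85477273) was at 3718 to 5833 CPM in WT (median 4789) and 1980 to 3065 CPM in libraries labelled Mettl3cko (median 2505). The groups were apart, and Fos fell by 0.87 on the log2 scale (standard error 0.12, adjusted p = 0.0012 by edgeR). Egr1, Atf3, Ier2, Jun, Klf2 and Fosb fell as well, while Fosl1 and Myc rose by 0.56 and 0.43. In the remaining lists calls were few. Of 11 imprinted growth genes Meg3, Ndn and Peg3 fell, with the calls of Ndn and Peg3 lost in 9 and 6 of the 12 fits without 1 library. Neat1, a nuclear long noncoding RNA that builds paraspeckles, fell by 0.93, and Meg3 was the other gene called of 13 such RNAs. Of 59 histone genes H1f0 and H3f3b rose by 0.82 and 0.49, and Hist1h2ac, H3f3a and Hist1h1c fell. Of 343 genes named Zfp, which encode zinc fingers, 5 rose and 14 fell, and of 2427 predicted genes named Gm 20 rose and 16 fell. Beside the 3.83% of all genes tested that rose, the share was lower in both lists. Beside the 2.64% that fell, it was lower among the Gm genes and higher among the Zfp genes. Of 11 heat shock genes Hspd1 rose. Of 18 genes of hypoxia and glycolysis 16 had a negative change and Gapdh fell. The Gapdh call was lost in 8 of the 12 fits without 1 library and with the random block in limma voom (adjusted p = 0.0606).

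**Figure D4:**
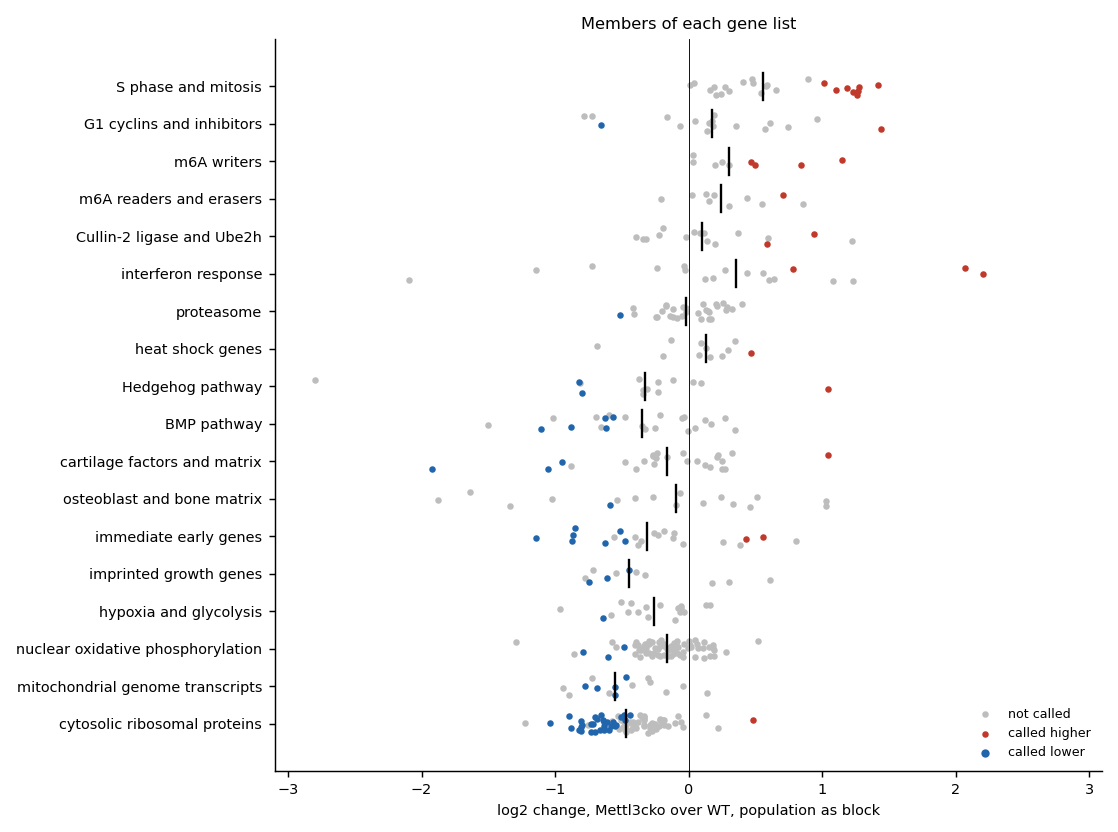
Log2 change of Mettl3cko over WT (population as block) of the tested members of 18 gene lists, 1 point per gene, red where called higher, blue where called lower and grey otherwise, with a black bar at the median of each list. Changes beyond 3 would be drawn at 3; the replication and mitosis list lies wholly above 0, while 82 of 85 ribosomal protein genes lie below it.

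Genes whose change differed most between populations were sought by the same test of genotype by population. Thbs4, a matricellular protein of tendon and cartilage, had the smallest p (adjusted p = 0.094 by edgeR). In SSC it was at 26.2 and 30.8 CPM in WT and 13.4 and 10.4 CPM in libraries labelled Mettl3cko, while in BCSP it was at 28.6 and 33.5 CPM in WT and 76.1 and 89.8 CPM in libraries labelled Mettl3cko. The log2 change was −1.26 in SSC, −0.42 in pre-BCSP and 1.42 in BCSP. Egfl6 had changes of −1.55, −0.62 and 1.79 in that order, and Serping1, an inhibitor of complement, of −0.14, 1.94 and 1.92. None of these differences passed an adjusted p of 0.05 by edgeR.

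The same contrast was then read in the 12 IP libraries of these sorts, which hold RNA captured by an antibody to m6A and played no part in choosing the calls. They come from the same sorted cells, so they are not a second set of animals. There 940 of 16605 genes tested in both kinds of library were higher at an unadjusted p under 0.05 (5.66%) and 2234 were lower (13.5%), and 102 and 72 of 17777 genes tested passed an adjusted p by edgeR. Of the 709 genes that rose in input and were tested in IP, 521 were higher in IP (73.5%, against 37% of all genes tested in both), and 194 were so at an unadjusted p under 0.05 (27.4%), against the 5.66% above. Of 482 genes that fell, 394 were lower in IP (81.7%, against 63% of all genes tested in both), and 134 were so at an unadjusted p (27.8%), against 13.5%. The called genes were better expressed than most genes tested, and their shares in IP were not compared with genes of like level. Cytl1 fell by 2.40, Prg4 by 2.38 and Id2 by 1.41 on the log2 scale in IP, and Olfml3 rose by 1.69 and Ube2h by 0.51. Fem1b was higher in IP by 0.94 (standard error 0.28, unadjusted p = 0.00466, adjusted p = 0.114 by edgeR). These IP values are not set against input. Cdk6 had a change of −0.54 in IP (unadjusted p = 0.0407, adjusted p = 0.234 by edgeR), opposite in sign to its change in input. Mgp, at −0.28 (unadjusted p = 0.282 by edgeR), and Ccne1, at −0.68 (unadjusted p = 0.698 by edgeR), did not change beyond the error in IP. Ribosomal protein genes went the other way: 28 of the 30 that fell in input were higher in IP, and over all 85 the median log2 change in IP was 0.57, against −0.35 over all genes tested in both.

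Enrichment of the changed genes by the m6A antibody in other cells was read in 20 WT libraries of PCP, THY, BLSP, 6C3 and HEC. These populations of the same bones share no library with the contrast. A gene counted as tagged where IP exceeded input by more than 1 on the log2 scale at an unadjusted p under 0.05, which held for 13.2% of 18145 genes tested in both. Of the 715 genes that rose 31 were tagged (4.34%), and of 491 that fell 96 were (19.6%). The ribosomal and mitochondrial classes account for part of the latter, since 79 of 85 ribosomal protein genes and 15 of 15 mitochondrial transcripts were tagged. Without these classes 12.7% of all genes, 4.34% of those that rose and 13.4% of those that fell were tagged. Among genes of at least 5 CPM and without these classes, where 8.85% of 9805 were tagged, the shares were 3.9% and 13.2%. Mgp, Cdk6, Id2, Prg4, Wtap, Rbm15 and Ccl7 were tagged, and Ube2h, Fem1b, Ccne1, Ythdf2, Cytl1, Chad and Fos were not. For Fem1b the study reported m6A in the untranslated region after the coding sequence, by m6A RIP-PCR in WT SSC. That signal was almost lost in its Mettl3-deleted SSC. In the downstream populations the log2 IP over input of Fem1b was −0.47 (unadjusted p = 0.00055 by edgeR). A count over the whole gene in other populations does not measure that untranslated region. The downstream populations differ from SSC, pre-BCSP and BCSP in cell type, and a tag there is not a measure of m6A in the cells of the contrast. What the enrichment of the mitochondrial and ribosomal classes reflects was not tested. A tag thus describes capture by the antibody over a whole gene and does not by itself show m6A.

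**Figure D5:**
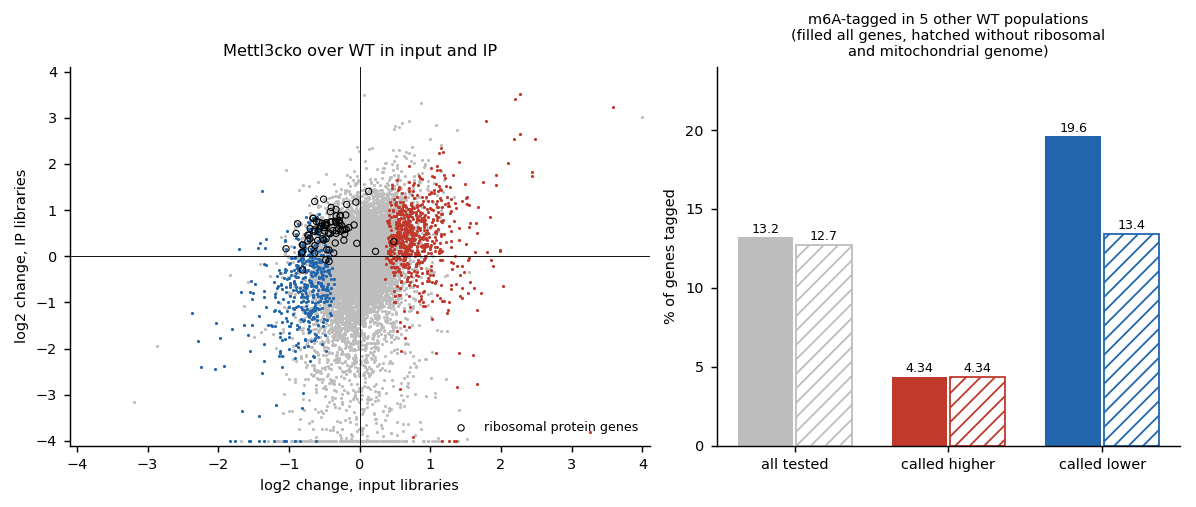
Left, log2 change of Mettl3cko over WT in input libraries (horizontal) and IP libraries (vertical) of the same 3 populations, 1 point per gene of at least 5 CPM, red and blue where called higher and lower in input, circles for ribosomal protein genes, and values beyond 4 drawn at 4. Right, share of genes (%) tagged in the 20 WT libraries of 5 other populations, filled for all genes and hatched without ribosomal protein and mitochondrial genome genes; the genes that rose are tagged at 4.34% and all genes tested at 13.2%.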

How the data were processed

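RNA from sorted cells was measured in input libraries (Smart-seq2, tagmented with Tn5, unstranded) and in IP libraries made with an m6A antibody. The deposited tables hold read counts per gene that the authors made by trimming with fastp 0.20.1, aligning to GRCm38 (mm10) with HISAT2 2.2.1 and counting with featureCounts 2.0.1. The authors' tables of fold changes and p-values were not used. Of 46959 entries, 128 under 2 repeated date names were dropped (at most 0.0596% of a library's counts), leaving 46831. CPM (counts scaled to library size) and tests were computed in R 4.3.3 with edgeR 4.0.16: filterByExpr, TMM scaling and the quasi-likelihood F test of genotype with population as a block, adjusted by Benjamini-Hochberg over the 18655 genes tested and called at 0.05. DESeq2 1.42.0 and limma 3.58.1 gave alternatives. The procedure was tested on simulated data drawn independently for each library. Such data lack the shared deviations of libraries of 1 number, so the error rate under those was not tested. Replicate numbers were not used as pairs, because WT and Mettl3cko libraries of 1 number did not deviate together.

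Genes named were the deleted gene, Mgp, Ube2h and Cdk6, up to 12 genes each way with the largest change among called genes of 1 direction and at least 5 CPM (predicted and date names left out), up to 6 each way with the smallest p, up to 6 with the smallest genotype-by-population p, the genes named by the study, and up to 4 called genes of each list. Members and lists were chosen with earlier results of these data known. Depth limits the precision of genes at a few CPM. Gene positions are from GENCODE vM21. A few genes of these lists are not reported here.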

Additional observations from a re-analysis of the deposited data

Results flagged for a closer look

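In 16 of 248 groups of 6 libraries (a gene or a library property in 1 genotype) a single library stood apart from the others by Dixon's 95% criterion, the gap to the nearest other library as a share of the range. Chance alone flags about 1 in 20 groups. Of the 16, 10 were groups of libraries labelled Mettl3cko and 6 were WT groups, and each was a single high library.

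Pre-BCSP Mettl3cko replicate 1 was the high library for Ube2h (174 CPM, the next 120), Cdk6 (295 CPM, the next 172), Scn2b (63.6 CPM, the next 35.8) and H1f0 (1840 CPM, the next 1350). Pre-BCSP Mettl3cko replicate 2 was high for Gli1 (27.1 CPM, the next 18.3) and Ctsk (104 CPM, the next 65.1). BCSP Mettl3cko replicate 1 was high for Bglap (23.6 CPM, the next 6.82), BCSP Mettl3cko replicate 2 for mt-Rnr1 (80.3 CPM, the next 60.7) and Gm19409 (3.63 CPM, the next 1.86), and SSC Mettl3cko replicate 1 for the globin gene Hba-a2 (15.8 CPM, the next 6.49).

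Among WT libraries, BCSP replicate 1 was high for Cdk6 (218 CPM, the next 108), Bglap (102 CPM, the next 25.9) and Kif11 (10.6 CPM, the next 5.75). Pre-BCSP replicate 1 was high for Hba-a1 (2.62 CPM, the next 1.04) and Kera (23.5 CPM, the next 8.83), and SSC replicate 1 for Hao1 (10 CPM, the next 4.54).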

How the results depend on the processing

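The counts of genes that rose and fell, 715 and 492, became 1311 and 1013 with DESeq2, 1082 and 891 without a filter on low counts, and 1342 and 1443 at the threshold of the study (log2 change beyond 0.5, unadjusted p under 0.05). They became 46 and 30 without SSC, 167 and 101 without BCSP, and 0 and 0 with counts summed over populations. Without single libraries they ran from 424 to 760 and from 251 to 526. The count that rose moved by over 1.5 times only without SSC WT replicate 2, and the count that fell also without SSC WT replicate 1 (304), SSC Mettl3cko replicate 2 (309), BCSP WT replicate 2 (317) and SSC Mettl3cko replicate 1 (324). With a replicate block they were 638 and 429, of which 581 and 368 were among the main calls, and all main calls tested kept their direction in every alternative. With DESeq2, genes called within SSC, pre-BCSP and BCSP numbered 713, 161 and 580. Genotype by population gave 41 genes with DESeq2's likelihood ratio test, 80 without a filter and 0 to 18 without single libraries. In IP libraries the 102 and 72 calls became 724 and 1445 with DESeq2, and 35 to 135 and 32 to 139 without single libraries. The causes were not tested.

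Directions turned only in genes that were not called. Thbs4 (−0.10 on the log2 scale) became 0.0423 in summed counts, 0.0681 with the random block, 0.0543 with sex and the random block, 0.50 without SSC and 0.0904 without pre-BCSP. Egfl6 became 0.57 without SSC and 0.13 without pre-BCSP, Cdh11 −0.034 and Piga −0.42 without BCSP, and Runx2 0.0134 without pre-BCSP. Ddx3y became 0.0054 with DESeq2, 0.0047 with its size factors, 0.0162 with the replicate block, 0.0765 with the random block, 0.0103 with sex and the random block, 0.0391 with sex as a term and 0.074 without pre-BCSP. Without single libraries the log2 change ran from −0.38 to 0.13 for Thbs4, −0.55 to 0.14 for Egfl6, −0.0478 to 0.36 for Piga, −0.10 to 0.29 for Cd200, −0.76 to 0.80 for Ddx3y and −1.39 to 0.28 for Xist. The fits with sex were added after the data were seen.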

Other observations

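The lists in this section were put together after the changes of single genes had been seen, so their counts are descriptions and support nothing. All are read in the same 12 input libraries, and adjusted p-values are those of edgeR's quasi-likelihood test over all genes tested.

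Of 20 cytosolic aminoacyl-tRNA synthetases 8 rose and 0 fell. Nars, which charges tRNA with asparagine, had a mean of 619.4 ± 99.97 CPM in WT (SD, n = 6) and 1334 ± 317 CPM in libraries labelled Mettl3cko (log2 change 1.10, adjusted p = 0.000693 by edgeR). Of 17 mitochondrial synthetases Lars2 was the only gene called, with a log2 change of −0.68. Of 24 ribosome assembly factors named Nop, Utp or Rrp 11 rose and 0 fell, with Nop56 at 0.79 and Nop2 at 0.91, and of 13 genes of RNA polymerase I Polr1b and Rrn3 rose. Of 20 initiation factors 6 rose and Eif4b fell, and of 12 eIF3 subunits Eif3f, Eif3k and Eif3m fell. Without the SSC libraries these lists kept 0 or 1 call each.

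Of 19 genes of serine synthesis and the amino-acid starvation response 8 rose, among them Psat1 and Phgdh of the serine pathway (log2 change 1.11 and 0.77) and Trib3 (0.99), while Atf4, the transcription factor of that response, had a change of −0.31 (adjusted p = 0.0934 by edgeR). Of 20 chaperones of the endoplasmic reticulum 5 rose, with Pdia4 at 1.16 and Hspa5 at 0.63, and Sqle and Lss, enzymes of cholesterol synthesis, rose with log2 changes of 0.94 and 1.07. Of 17 Wnt antagonists and feedback genes Notum, Nkd1 and Wif1 fell and Lef1 rose. Of 10 interferon-inducible GTPases Igtp, Irgm2 and Gbp7 rose, with none called once genotype and replicate number were a random block in limma voom. Of 20 chemokines Ccl7 and Ccl2 rose, of 13 NF-kappaB subunits and inhibitors Nfkb2, Relb and Chuk rose, and of 11 YAP and TEAD genes Tead4 rose and Ctgf fell.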
